A study of Mus musculus with 2 samples.

Results

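The miR-290 to miR-295 cluster is a run of microRNA (miRNA) hairpins that is characteristic of mouse embryonic stem cells, and it was examined here in cells without Dicer. Its members were all rows of the count table named for a hairpin from miR-290 to miR-295, with any letter and either arm. This gave 18 mature miRNAs, from 9 hairpins listed with both arms, of 1907 rows in the table. The 2 libraries, called library 1 and library 2 after their titles, are both from Dicer knockout mouse embryonic stem cells, labelled as blastocyst-derived, of strain background 129/Ola, with E14 given as developmental stage. Both were grown on gelatin with serum and LIF, a cytokine that keeps these cells undifferentiated, and the descriptions name them C1 and H11. Neither the knockout method nor whether each is a separate clone is stated. They form 1 group of 2 replicates, and since nothing says that they came from separate cultures, spreads and p-values cover these libraries only and may be technical. No cells with Dicer were among the samples, so no value below compares knockout with wild type.

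A miRNA is cut from a primary transcript as a hairpin by Drosha, and Dicer then removes the loop of the hairpin. This releases a duplex of the arm on the 5′ side (5p) and the arm on the 3′ side (3p), of which Argonaute usually keeps one. Both libraries are labelled Dicer knockout, and whether their counts on either arm arose by this route was not tested. Arm shares below are shares of counts only. The seed, bases 2 to 8 of the mature miRNA, does most of the pairing with target mRNAs. In embryonic stem cells the cluster is transcribed as a single unit and is among the most abundant miRNA sources. Its 3p arms with the bases AAGUGC in the seed are known for promoting the rapid cell cycle of these cells, and the miR-302 and miR-17 families carry the same bases.

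The hairpins lie within 2216 nt of chromosome 7, from 3218626 to 3220841 (GRCm38, the assembly also called mm10, as annotated in GENCODE M21 and at the same positions in RefSeq). Along the plus strand the order is Mir290a, Mir291a, Mir292 (the hairpin of miR-292a), Mir291b, Mir293, Mir294 and Mir295. Mir290a, at 3218626 to 3218708, overlaps no other gene than Mir290b, which is annotated inside it on the minus strand at 3218638 to 3218695. The others lie opposite the last exon of Nlrp12, a minus-strand gene of the NLR family of innate immunity, in the part annotated as UTR. Mir292b is annotated on the minus strand inside Mir292, at 3219198 to 3219259. Mir293 lies at 3220343 to 3220422, Mir294 at 3220641 to 3220724 and Mir295 at 3220773 to 3220841.

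Mature sequences were taken from RefSeq (GRCm38.p6), where 17 of the 18 members were matched. Seeds are in capitals. The first set holds the 3p arms of miR-291a, miR-294 and miR-295, shown because they share the seed AAGUGCU, which is also that of miR-302b-3p and miR-302d-3p.
mmu-miR-291a-3p: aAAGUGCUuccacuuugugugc
mmu-miR-294-3p: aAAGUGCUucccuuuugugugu
mmu-miR-295-3p: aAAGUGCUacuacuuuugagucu
The second set holds other 3p arms, shown for how the seed differs. Both miR-290a-3p and miR-291b-3p have AAGUGC in the seed, as the first set does, and miR-293-3p has no AAGUGC in its first 8 bases.
mmu-miR-290a-3p: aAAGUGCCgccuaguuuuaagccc
mmu-miR-291b-3p: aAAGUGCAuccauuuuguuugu
mmu-miR-293-3p: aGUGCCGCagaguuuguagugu
The third set holds the 5p arms, which carried most of the counts of the cluster. UCAAA stands in every one of these seeds.
mmu-miR-290a-5p: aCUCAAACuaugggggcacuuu
mmu-miR-292a-5p: aCUCAAACugggggcucuuuug
mmu-miR-293-5p: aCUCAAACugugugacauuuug
mmu-miR-294-5p: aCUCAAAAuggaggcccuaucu
mmu-miR-295-5p: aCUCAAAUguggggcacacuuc
mmu-miR-291a-5p: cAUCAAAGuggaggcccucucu
mmu-miR-291b-5p: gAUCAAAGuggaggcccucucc

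Compared base by base from the 5′ end, the 7 plus-strand 5p arms shared 11 to 20 positions in 21 pairs, with a median of 14. The plus-strand 3p arms with a sequence shared 6 to 19 positions in 15 pairs, with a median of 13. The closest pair was miR-291a-5p and miR-291b-5p, which have an unbroken run of 20 identical bases. A read that ends within this run could belong to either, and how such reads were counted is not given in the sources used here, so the counts of these 2 arms are uncertain against each other. No other pair shared a run of 15 bases or more. Lengths were 21 to 24 nt, so a count stands for nearly the same length in every member with a sequence. Levels are given in CPM, the counts scaled to a total of 1000000 per library. Whether arms of different sequence were captured equally well in the libraries was not tested. Ranks and shares of different arms, also of the 2 arms of a hairpin, therefore describe counts and not necessarily amounts of RNA.

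Library 1 held 45222 counts over the whole table and library 2 held 37476, so 1 count was 22.1 CPM in library 1 and 26.7 CPM in library 2. Over the 129 miRNAs whose counts in the libraries sum to 10 or more, the columns differed by more than counting noise (chi-square of 2201 on 128 degrees of freedom), and they were treated as 2 samples. Intervals are 95% Wilson intervals. They, the limits for a count of 0 and the p-values of Fisher's exact test below cover counting error only. No molecular identifiers are mentioned, and reads copied by PCR are not independent. Where reads are not independent, these p-values are too small and the intervals too narrow. Dicer mRNA is absent from such a table and the knockout could not be checked. Of 36 listed miRNAs typical of other cells (let-7 with miR-98 for differentiated cells, and miRNAs of fibroblasts, muscle, liver, neurons and blood), 22 were at 0 in both libraries and 0 reached 10 counts in both. Together they had 58 counts in library 1 and 35 in library 2. In the whole table, 433 of 1907 rows had a count in either library, against 14 of these 36. Only 80 of the 1907 rows reached 10 counts in both, so 0 of 36 does not set the lists apart from the table. Outside these lists, and picked after their values were seen, miR-205-5p, known from epithelial cells, had 239 and 209 counts, and miR-150-5p, known from lymphocytes, had 17 and 11. Their part in the values of the cluster was not tested. Defining mRNAs of embryonic stem cells are not in a table of miRNAs. The labelled cell type was therefore checked only against these lists, which cannot decide it, and the cluster itself.

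The cluster had 1638 counts in library 1, 3.62% of the library (3.45 to 3.80), and 1214 in library 2, 3.24% (3.06 to 3.42), a mean of 3.43% ± 0.271 (SD, n = 2). Most counts of each library lay on entries with numbers above 1000, and miR-3963 alone had 14612 in library 1 and 9512 in library 2. The 843 miRNAs with numbers of 1000 or below had 11624 and 7784 counts. Of these counts the cluster made up 14.1% in library 1 and 15.6% in library 2. Its share was thus lower in library 2 on the first total and higher in library 2 on the second. Of the 18 members, 14 had a count in either library, and 12 reached 10 counts in both.

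The arm mmu-miR-293-5p was the leading member in both libraries. In library 1 it had 483 counts and in library 2 it had 325, at a level of 9676 CPM ± 1420 (SD, n = 2), and ranked as number 10 of the table in each. The arm mmu-miR-295-5p followed with 382 and 234 counts, 7346 CPM ± 1558 (SD, n = 2), ranks 11 and 14. Its partner mmu-miR-295-3p had 210 and 251 counts, 5671 CPM ± 1452 (SD, n = 2), ranks 17 and 11. Among miRNAs numbered 1000 or below, miR-293-5p ranked as number 4 in both libraries. On that ranking miR-295-5p had ranks 5 and 7, and miR-295-3p had ranks 10 and 5. These 3 arms held 65.6% of the cluster in library 1 and 66.7% in library 2. Of the 3, miR-293-5p stood clear of the other two in level. The ranges of miR-295-5p and miR-295-3p over the libraries overlapped, and their order was opposite in the 2 libraries.

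A second tier held 3 arms at 2195 to 2725 CPM, whose ranges overlapped in order. The 5p arm of miR-292a had 127 counts in library 1 and 99 in library 2, and ranked as number 21 in both. The 3p arm of miR-290a had 129 and 63 counts, and its rank went from 20 to 27. The arm mmu-miR-291a-5p had 108 and 75 counts and ranked as number 24 in both. This tier lay apart from miR-295-3p above it and from the arms below it.

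Further down, a tier lay between 763 and 902 CPM. It held mmu-miR-294-5p with 49 and 27 counts, mmu-miR-294-3p with 26 and 46, mmu-miR-292a-3p with 41 and 27, and mmu-miR-293-3p with 34 and 29. Within it no arm was separated from its neighbour by more than the spread between the libraries. Below it, miR-291b-5p had 24 and 16 counts, mmu-miR-291a-3p had 12 and 15, and miR-290a-5p had 13 and 6. In all, 7 of the 13 steps down this order overlapped and 6 did not.

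**Figure D1:**
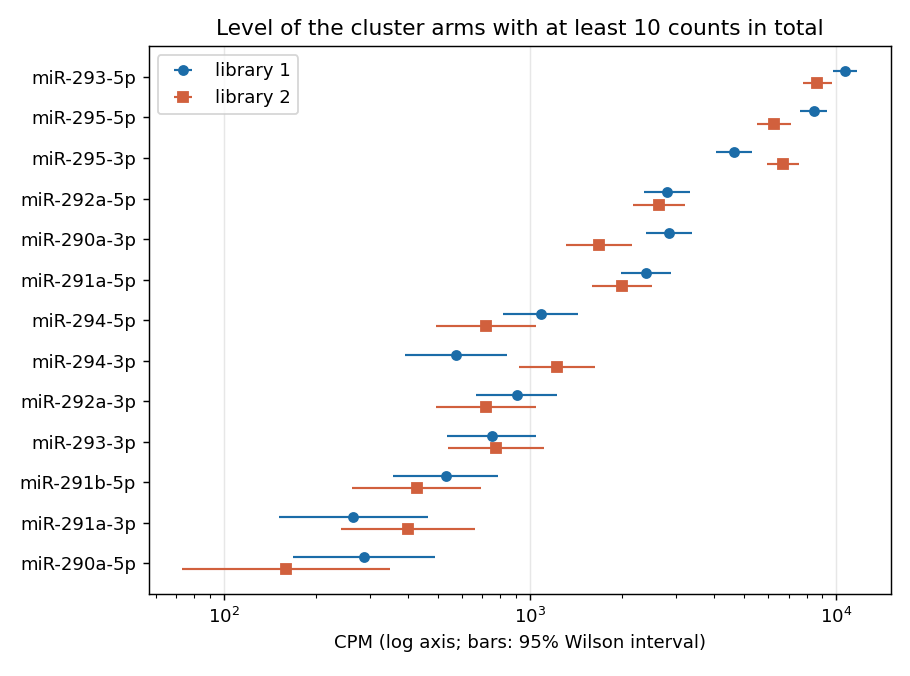
Level of each arm with at least 10 counts in total, as CPM on a log axis, for library 1 (circles) and library 2 (squares) with 95% Wilson intervals. The arms run from miR-293-5p at 9676 CPM to miR-290a-5p at 224 CPM, and the squares lie to the right of the circles for miR-295-3p, miR-294-3p, miR-291a-3p and, barely, miR-293-3p.

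Members with few or no counts were miR-291b-3p, with 0 counts in library 1 and 1 in library 2, and the 4 arms of the minus-strand hairpins. Both arms of miR-290b and both arms of miR-292b had 0 counts in each library, so the limit for each arm, that of 3 counts, was 0.00663% of library 1 and 0.00801% of library 2. The plus-strand hairpins that contain them had 142 and 69 counts (miR-290a) and 168 and 126 counts (miR-292a). Whether reads were counted by strand is not given in the sources used here, so at these overlapping genes the strand of the counts rests on the names in the table.

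Summed over both arms, miR-295 was the most abundant hairpin at 592 counts in library 1 against 485 in library 2, which is 38.0% ± 2.69 of the cluster (SD, n = 2). On the total of the whole table, the level of miR-295 was nearly the same in both, at 13091 and 12942 CPM. With the total over miRNAs numbered 1000 or below, each log2 ratio of library 2 over library 1 is 0.31 higher. The hairpin of miR-293 came next at 30.4% ± 1.70 of the cluster (SD, n = 2), with 517 and 354 counts. Between these 2 in the genome, miR-294 had 75 and 73 counts, or 5.30% ± 1.01 (SD, n = 2). The 4 hairpins upstream were miR-290a at 7.18% ± 2.11, miR-291a at 7.37% ± 0.0619, miR-292a at 10.3% ± 0.0866 and miR-291b at 1.43% ± 0.0459 of the cluster (SD, n = 2 each). By mean share among the 7 hairpins with counts, the 3 at the downstream end, miR-293, miR-294 and miR-295, ranked second, next to last and first. In library 2, however, miR-290a, with 69 counts, lay below miR-294, with 73.

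**Figure D2:**
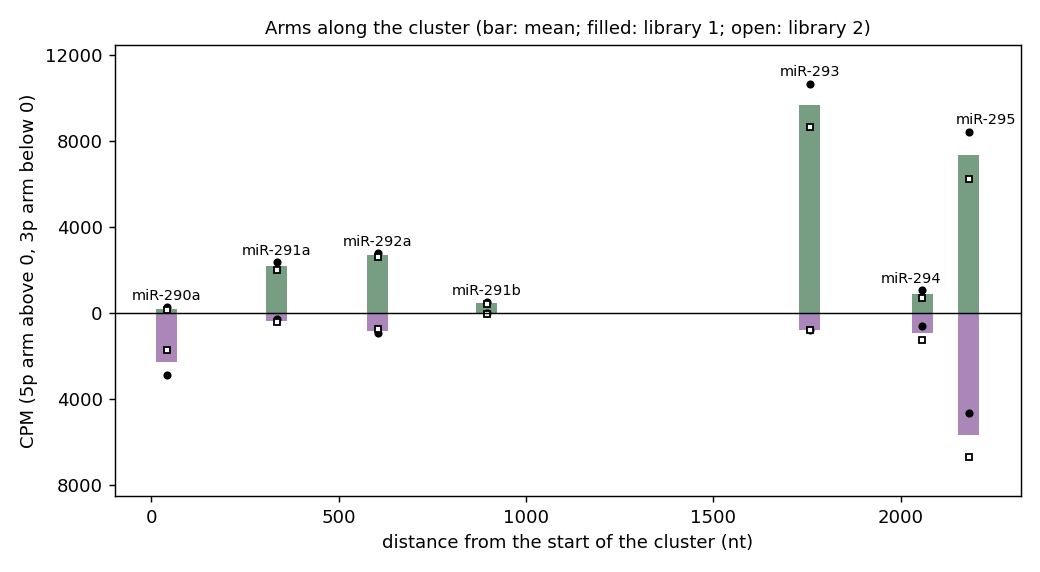
Mean CPM of the 5p arm (upward bars) and the 3p arm (downward bars) of the 7 plus-strand hairpins against distance in nt from the start of Mir290a; filled circles are library 1 and open squares library 2. The tallest upward bars are miR-293 and miR-295 near the downstream end, and miR-295 also has the longest downward bar, at 5671 CPM.

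The 5p arms held 72.4% of the counts of the cluster in library 1 (70.2 to 74.5) and 64.4% in library 2 (61.7 to 67.1), a mean of 68.4% ± 5.65 (SD, n = 2). All other hairpins listed with both arms had 84.1% in library 1 and 79.5% in library 2. Outside the cluster, rows that differ only in a locus number, such as that of miR-92a-1-5p, were pooled under a shared hairpin name. This pooling also holds for the tests of arm balance below. Without miR-182, miR-183 and miR-21a, the hairpins that lead that total, the others had 63.9% and 58.7%. In the cluster 7 hairpins reached 10 counts per library, and 5p counts exceeded 3p counts in both libraries for 4 of them. The corresponding figure for the table was 36 of 58 (62.1%). Arm use in the other abundant cluster was more one-sided: 98.6% and 98.8% of miR-182 counts and 96.1% and 96.2% of miR-183 counts were 5p in libraries 1 and 2. The remaining hairpin of that cluster, miR-96, had 6 and 3 counts, too few for a share.

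Arm use differed among the hairpins. The hairpins of miR-293, miR-291a, miR-291b and miR-292a were mostly 5p in both libraries. For miR-293 the 5p share was 93.4% in library 1 (91.0 to 95.3) and 91.8% in library 2 (88.5 to 94.2). It was 90.0% and 83.3% for miR-291a, 75.6% and 78.6% for miR-292a, and 100% and 94.1% for miR-291b, which had only 24 and 17 counts. The intervals of the 2 libraries overlapped for each of these 4 hairpins.

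The hairpin of miR-290a was the reverse. Its 3p arm, with AAGUGC in the seed, held 90.8% of its counts in library 1 (85.0 to 94.6) and 91.3% in library 2 (82.3 to 96.0). No other hairpin of the cluster had a 5p share under 50% in both libraries.

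The hairpins of miR-294 and miR-295 used both arms, and their balance differed between the libraries. For miR-294, 49 of 75 counts were 5p in library 1, or 65.3% (54.1 to 75.1), against 27 of 73 in library 2, or 37.0% (26.8 to 48.5). The major arm was thus 5p in library 1 and 3p in library 2. For miR-295, 382 of 592 counts were 5p in library 1, or 64.5% (60.6 to 68.3), against 234 of 485 in library 2, or 48.2% (43.8 to 52.7). Arm balance was tested for every hairpin of the table with both arms listed and a sum of 10 counts or more, by Fisher's exact test on 5p and 3p counts by library, two-sided, with Benjamini-Hochberg adjustment. With 1 library on each side this test compares libraries, not conditions. Of 101 hairpins tested 3 passed at an adjusted p of 0.05 (2.97%), and 2 of these 3 were among the 7 of the cluster. Only 58 of the 101 had 10 counts or more in each library. Hairpins with few counts or with an unused arm could hardly pass. Whether the cluster differs from hairpins of like depth and arm use was not tested. The adjusted p of Fisher's exact test was 9.69e-06 for miR-295, with a change of -16.3 percentage points in the 5p share from library 1 to library 2. For miR-294 it was 0.0316, with a change of -28.3 points, and 0.0870 when hairpins with fewer counts were tested as well, so this call depended on the count minimum. The remaining 5 hairpins of the cluster had adjusted p-values of 1.0 in Fisher's exact test, with changes from -6.67 to 2.98 points. Outside the cluster miR-434 passed, with a change in the other direction. An arm share is taken within a hairpin, so the scale chosen for the libraries does not enter it.

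**Figure D3:**
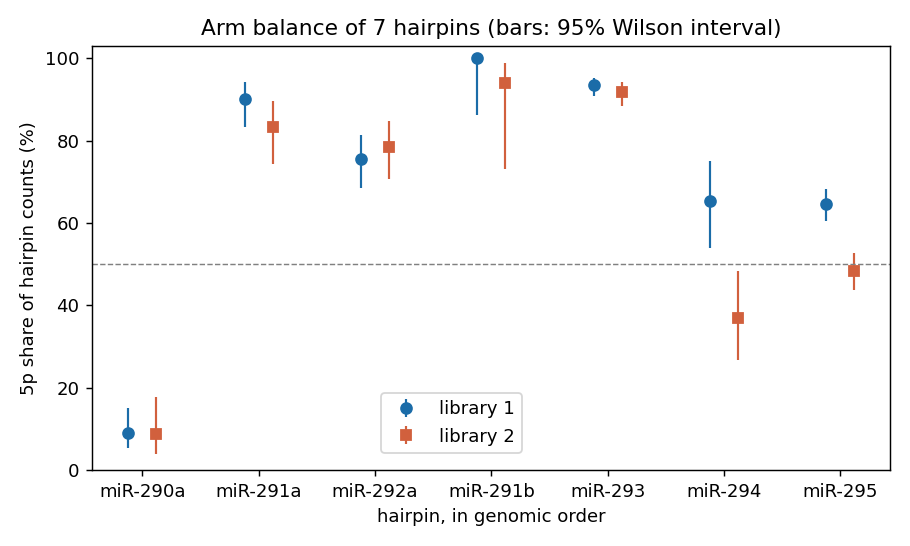
Share of the counts of each hairpin that fell on the 5p arm, in percent, for library 1 (circles) and library 2 (squares) with 95% Wilson intervals, hairpins in genomic order. The points of miR-294 (65.3% and 37.0%) and miR-295 (64.5% and 48.2%) are apart, those of miR-290a are both near 9%, and for the other 4 hairpins the intervals overlap.

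Levels were then compared between the libraries arm by arm, by Fisher's exact test of each count against the rest of its library over the same 129 miRNAs, with calls at an adjusted p under 0.05 and at least 2-fold. Of the 129, 10 were called (7.75%), 6 higher in library 2 and 4 higher in library 1. The split was 9 and 1 of 112 when the total over miRNAs numbered 1000 or below set the scale, and 6 and 2 of 119 when the 10 leading entries were left out of the total. Of the members 13 were tested and 1 was called, miR-294-3p. It had 26 counts in library 1 (575 CPM) and 46 in library 2 (1227 CPM), a 2.13-fold higher level (log2 ratio 1.09, adjusted p = 0.0116 in Fisher's exact test). Over the alternative scales and without the count filter its adjusted p lay between 0.000548 and 0.0391.

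Without the fold minimum 25 of the 129 miRNAs passed the adjusted threshold (19.4%), and so did 5 of the 13 members. The level of miR-295-3p in library 2 exceeded that in library 1 by 1.44-fold (adjusted p = 0.000777 in Fisher's exact test). Its partner miR-295-5p was 1.35-fold lower there (adjusted p = 0.00190 in the same exact test). The 3p arm of miR-290a was also lower in library 2, by 1.70-fold (adjusted p = 0.00338, Fisher's exact test), as was miR-293-5p, by 1.23-fold (adjusted p = 0.0210, Fisher's exact test). On the scale of miRNAs numbered 1000 or below, miR-294-3p and miR-295-3p were the only members past the adjusted threshold. The change of scale by itself adds 0.31 to each log2 ratio, so that of miR-293-5p went from -0.30 to 0.0069. The median over the miRNAs tested, 112 in place of 129, moved by 0.27. On each of the 5 scales tried miR-294-3p and miR-295-3p were higher in library 2 past the adjusted threshold, while miR-293-5p was past it on the first scale and under size-factor scaling and, as a member of the 10 leading entries, was not tested on 1 scale.

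By direction alone, all 7 of the 5p arms tested had a lower CPM in library 2 and 4 of 6 3p arms had a higher one, except that miR-291a-5p, miR-292a-5p and miR-293-5p turned to the other side on the scale of miRNAs numbered 1000 or below and miR-293-3p did under size-factor scaling. Among all miRNAs tested, 46 of 65 5p arms were lower and 30 of 50 3p arms were higher in library 2. The median log2 ratio was -0.30 for the 13 members and -0.05 for the 129 miRNAs.

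**Figure D4:**
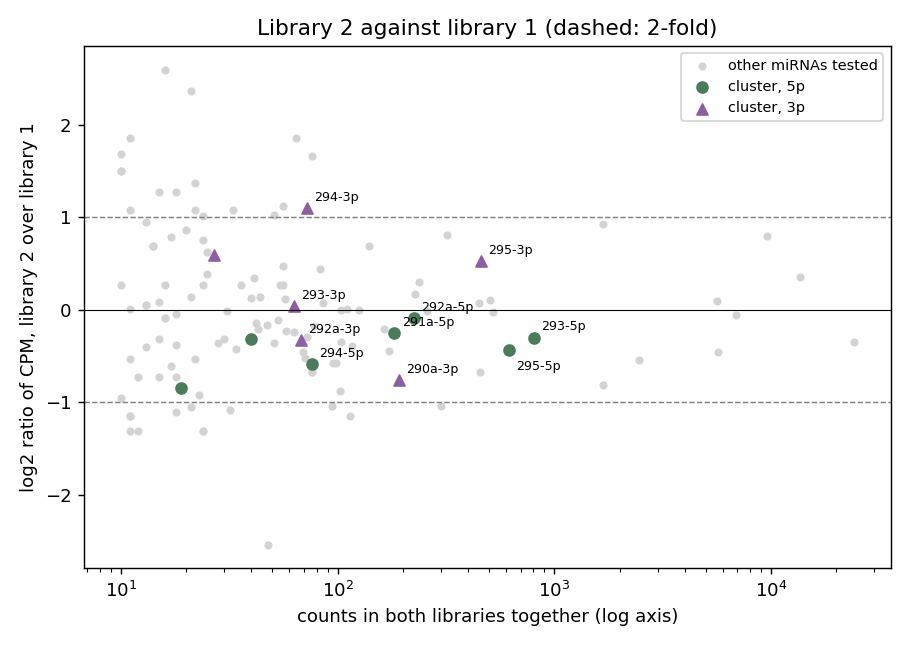
Log2 ratio of CPM, library 2 over library 1, against the counts of both libraries together on a log axis, for 129 miRNAs, with 5p arms of the cluster as circles, 3p arms as triangles and other miRNAs in grey. The triangle of miR-294-3p lies above the 2-fold line at 1.09, that of miR-295-3p at 0.53, and all 7 circles lie below 0.

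Grouped by seed, which leaves out mmu-miR-292a-3p (41 and 27 counts) as the member not matched to a sequence, the cluster was led by arms with CUCAAAC, which are miR-290a-5p, miR-292a-5p and miR-293-5p. They held 38.0% of its counts in library 1 (35.7 to 40.4) and 35.4% in library 2 (32.8 to 38.2). The seed CUCAAAU, of miR-295-5p alone, held 23.3% and 19.3%. The pair miR-291a-5p and miR-291b-5p, with AUCAAAG, held 8.06% and 7.50%, and CUCAAAA, from miR-294-5p, held 2.99% and 2.22%. Among the 1623 miRNAs of the table matched to a sequence, none outside the cluster had any of these 4 seeds.

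The seed AAGUGCU, of miR-291a-3p, miR-294-3p and miR-295-3p, took 248 counts in library 1 against 312 in library 2. This was 15.1% of the cluster in library 1 (13.5 to 17.0) and 25.7% in library 2 (23.3 to 28.2), and most of it was miR-295-3p, with 210 and 251 counts. As a level, it was 5484 CPM in library 1 and 8325 CPM in library 2. The arm miR-290a-3p, alone with the seed AAGUGCC among matched members, went the other way. It held 7.88% of the cluster in library 1 (6.67 to 9.28) and 5.19% in library 2 (4.08 to 6.58), with intervals just apart. The unmatched miR-292a-3p held 2.50% (1.85 to 3.38) and 2.22% (1.53 to 3.22), with overlapping intervals. The 2 arms were not grouped, so the separation is that of miR-290a-3p only. The seed GUGCCGC of miR-293-3p held 2.08% and 2.39%. The 3p arms with an AAGUGC core were therefore not uniform between the libraries.

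Arms with AAGUGC within bases 1 to 8 were 6 of the 17 members with a sequence, and 5 of these had counts. The shares that follow do not class miR-292a-3p. They held 23.6% of the cluster counts on arms with a sequence in library 1 (21.6 to 25.8) and 31.7% in library 2 (29.1 to 34.4), a mean of 27.6% ± 5.71 (SD, n = 2). In the whole table, 18 of the 1623 matched miRNAs had the core in this window (1.11%), and the cluster supplied 86.3% of their counts in library 1 (82.7 to 89.2) and 89.3% in library 2 (86.0 to 91.9).

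Of 10 miRNAs outside the cluster that are known for this core, the 4 of the miR-302 family (miR-302a-3p, miR-302b-3p, miR-302c-3p and miR-302d-3p) had 0 counts in both libraries. The other 6 belong to the miR-17 family, and the most abundant were miR-93-5p, with 25 counts in library 1 and 18 in library 2, and miR-106b-5p, with 21 and 13, and only these 2 reached 10 counts in both. The 10 together had 56 counts in library 1 and 42 in library 2, fewer than miR-295-3p alone.

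In the ranking of the whole table by mean CPM, the leading members stood among miRNAs of other origin. Directly above miR-293-5p was miR-21a-5p, at 19736 CPM ± 7646 (SD, n = 2), a miRNA abundant in many tissues. Below miR-295-5p came miR-92a-3p at 6320 CPM ± 69.2 (SD, n = 2), from the miR-17 to miR-92 cluster. The 3p arm of miR-295 stood between miR-5121 and miR-205-5p, miR-292a-5p came just after miR-16-5p, and miR-135b-3p followed miR-291a-5p. The ranges of miR-295-5p and miR-92a-3p over the libraries overlapped.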

How the data were processed

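Total RNA was made into TruSeq small RNA libraries, per the labels' protocols. The table deposited by the authors gives raw counts for each mature miRNA. The submitters' processing notes name cutadapt, STAR, featureCounts and mm10; their settings, the miRNA annotation and the handling of reads that match several miRNAs are not given in the sources used here. The library totals were 45222 and 37476 counts.

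Both libraries form 1 group. Shares carry 95% Wilson intervals, and a count of 0 was read as a limit of 3 counts. Libraries were compared by Fisher's exact tests over the whole table, as the report states, with a minimum of 10 counts. Both tests were checked on simulated data. Those data held counting noise alone, which the libraries exceed, and more reads per hairpin than miR-294 or miR-291b had. The check therefore does not cover these conditions. Named were all members, miRNAs with the AAGUGC core, the miR-182 cluster and neighbours in rank. Members and lists were chosen with earlier results of these data known. Alternatives changed scales, filters, denominators and libraries; 2 were added after seeing the values. Software was Python 3.11.15 with scipy 1.17.1, pandas 2.3.3, numpy 2.4.6 and matplotlib 3.10.9, and R 4.3.3 with edgeR 4.0.16 and DESeq2 1.42.0 for scaling factors only.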

Additional observations from a re-analysis of the deposited data

How the results depend on the processing

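The mean cluster share of 3.43% became 4.85% without the most abundant entry in the denominator and 14.8% over miRNAs numbered 1000 or below, as smaller denominators require. The mean 5p share of the cluster, 68.4%, became 76.0% without miR-295 and, in an alternative added after seeing the values, 78.6% without miR-294 and miR-295. Members detected in both libraries went from 12 to 6 at a minimum of 50 counts. Members called between the libraries went from 1 to 5 when no fold was required and to 0 when 4-fold was. Hairpins of the cluster called for arm balance went from 2 to 1 without the count minimum, which adds hairpins to the adjustment. On the scale of miRNAs numbered 1000 or below, log2 ratios reversed to 0.052 for miR-291a-5p, 0.22 for miR-292a-5p and 0.0069 for miR-293-5p; under size-factor scaling miR-293-3p reversed to -0.0071. None of these 4 had been called at 2-fold. These scales add a constant to every log2 ratio, 0.31 for the first and -0.049 for the size factors, which moved these ratios across 0. Why the libraries differ was not tested. Of 90 single-arm values under alternatives, 81 kept direction and call. Leaving out 1 library gave 3.24% to 3.62% for the cluster share, 64.4% to 72.4% for the 5p share, 23.6% to 31.7% for the AAGUGC share and 12 to 13 detected members. Differences between the libraries need both. No paired analysis was possible because both libraries belong to the same group. At these depths a single count is 22.1 or 26.7 CPM, and arms whose counts sum to under 10 over both libraries were not compared.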
